A study of Mus musculus with 36 samples.

Results

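The granins and the enzymes that mature prohormones were followed as 9 genes among the 37315 of the count table: the granins Vgf, Scg2, Scg3, Scg5, Chga and Chgb, and the processing enzymes Pcsk1, Pcsk2 and Cpe. They were taken by their symbols, and all 9 were present and passed the filter on low counts in every fit. Polyadenylated RNA came from wild-type mice of a BL-6 background, which were housed singly and handled for 3 minutes a day on 5 days. Mice given a foot shock (labelled fear), mice exposed to the context and mice of the home cage group were compared, with tissue taken 90 minutes after behaviour from the medial (MEC) and lateral (LEC) parts of the entorhinal cortex and from the hippocampal fields CA3 and CA1. Each of the 12 groups of region and condition had 3 libraries, 36 in all. Which mouse gave which library is not stated, so 1 mouse may have given tissue of several regions, and the tests speak only of the spread between these libraries, which may be technical.

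Granins are acidic proteins that aggregate in the trans-Golgi network and help to form dense-core vesicles, the large secretory vesicles that release neuropeptides and neurotrophins. Inside the maturing vesicle, the prohormone convertases encoded by Pcsk1 and Pcsk2 cut precursors at pairs of basic residues, and carboxypeptidase E, encoded by Cpe, trims the basic residues that are left. Several granins are themselves precursors of active peptides, and transcription of Vgf, Scg2, Chgb and Pcsk1 is known to respond to neuronal activity and cyclic AMP in cultured cells and brain.

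RefSeq promoter windows (GRCm38.p6; 250 bases before the start and 50 from it) were matched by symbol for 7 of the 9 members, all but Vgf and Cpe. The palindrome TGACGTCA, the cyclic AMP response element, was found in 3 of the 7 windows, those of Scg2, Chgb and Pcsk1, and in 2.03% of 27025 genes with a window. Its first 5 letters alone, TGACG, counted on both strands and including those inside TGACGTCA, were in 7 of 7 windows and in 23.05% of genes. The AP-1 motif TGANTCA, also read on both strands, was in 0 of 7 windows and in 8.97% of genes. The 150 bases from 100 before the start to 50 from it are shown for the 3 members with the palindrome, whose transcripts rose in at least 1 comparison below, and for Pcsk2, which rose without it, and Chga, whose level followed the GC slope described below; capitals mark TGACGTCA or TGACG, printed as CGTCA where it lies on the other strand.
Scg2 chr1:79439977-79440126 (- strand): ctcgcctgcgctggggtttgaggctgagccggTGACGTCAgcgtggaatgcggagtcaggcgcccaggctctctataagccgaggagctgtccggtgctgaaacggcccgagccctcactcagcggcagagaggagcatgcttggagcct
Chgb chr2:132781542-132781691 (+ strand): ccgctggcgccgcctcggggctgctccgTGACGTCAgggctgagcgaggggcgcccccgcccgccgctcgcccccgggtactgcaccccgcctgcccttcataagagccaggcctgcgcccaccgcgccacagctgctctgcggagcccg
Pcsk1 chr13:75089757-75089906 (+ strand): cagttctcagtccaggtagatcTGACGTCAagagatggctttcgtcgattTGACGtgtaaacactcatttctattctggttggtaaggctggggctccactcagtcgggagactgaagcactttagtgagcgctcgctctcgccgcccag
Pcsk2 chr2:143546033-143546182 (+ strand): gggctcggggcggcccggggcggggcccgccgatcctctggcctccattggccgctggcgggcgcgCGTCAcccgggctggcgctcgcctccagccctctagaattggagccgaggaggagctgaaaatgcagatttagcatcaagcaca
Chga chr12:102554841-102554990 (+ strand): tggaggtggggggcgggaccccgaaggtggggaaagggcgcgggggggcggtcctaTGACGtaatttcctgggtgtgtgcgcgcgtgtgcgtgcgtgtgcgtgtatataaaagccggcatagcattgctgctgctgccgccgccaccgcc
The palindrome began 68 bases before the start in Scg2, 72 before it in Chgb and 78 before it in Pcsk1. These matches describe letters in the window and were not tested as binding sites.

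Total counts per library lay between 21871412 and 68974340 (median 28098008). CPM, the count of a gene scaled to a library total of 1000000, follows 1 gene across libraries, while RPKM, which divides CPM by exon length, is used wherever genes are set against each other. Region labels met their markers in part: all 6 CA3 pyramidal markers were higher in CA3 than in CA1, and 6 of 7 CA1 pyramidal markers were lower in CA3 than in CA1. Dentate granule markers were also present in CA1, at 139 to 596 summed CPM over the 8 genes, and in CA3, at 63 to 273. They summed to 33.7 to 54.5 CPM in LEC and 37.7 to 42.9 CPM in MEC. Pomc, Avp, Oxt, Gh, Prl and Hcrt, genes of pituitary and hypothalamic cells that are rich in granins, summed to at most 1.01 CPM in any library. In bulk tissue, fewer cells of a type and less RNA per cell cannot be told apart.

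Some libraries had levels that followed the GC content of genes. The slope of the deviation from the mean of the region, per 10 percentage points of GC, was lowest in context 2 and context 3 of CA3 (-0.71 and -0.44 on the log2 scale) and home cage 3 of LEC (-0.48) and highest in home cage 2 of CA3 (0.52). Over the 36 libraries this slope had a Pearson r of 0.87 with Chga (58.4% GC) and 0.75 with Vgf (64.1% GC), but 0.08 with Chgb (53.9% GC) and 0.03 with Pcsk2 (46.9% GC), all centred on the mean of the region. For the members called in context against home cage of CA3, r was -0.44 with Pcsk1 and -0.40 with Scg2; it was -0.55 with Scg3, -0.40 with Cpe and -0.05 with Scg5. The main tests make no correction for GC content, and calls that offsets for GC content and exon length add or end are named with the results.

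**Figure D1:**
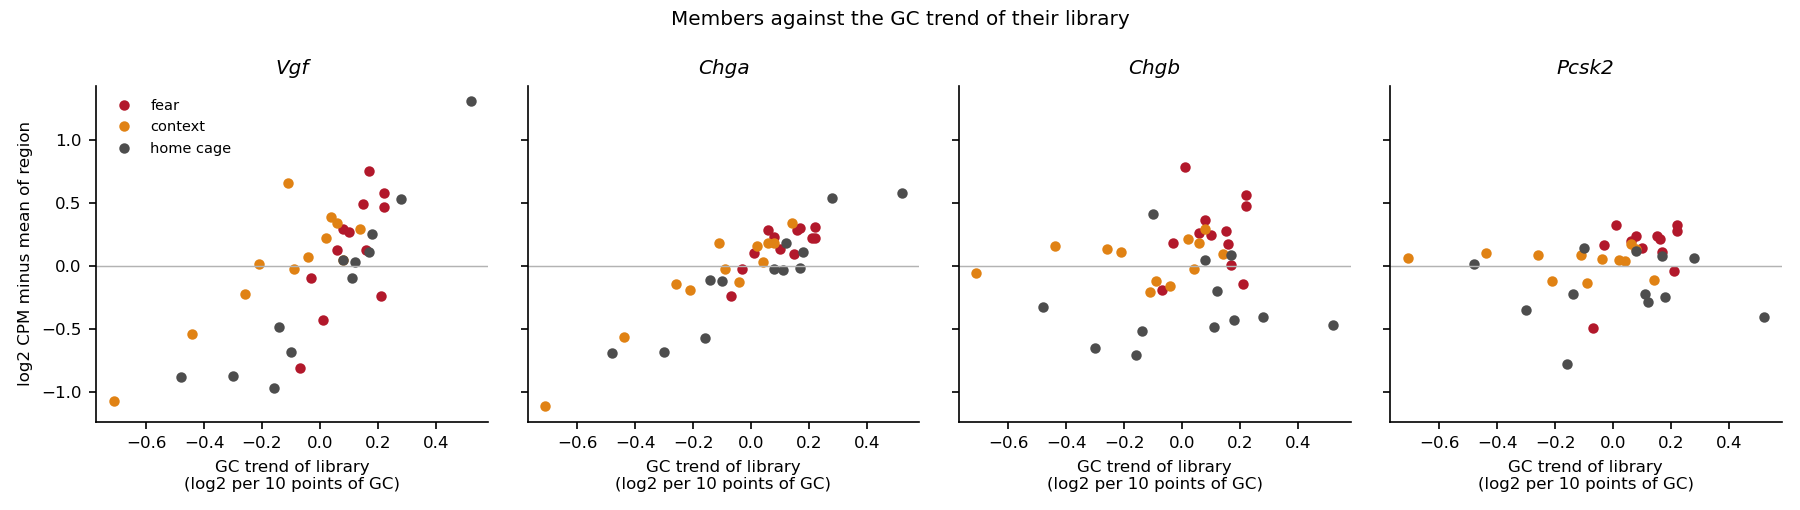
Level of 4 members in each library (log2 CPM minus the mean of the region) against the GC trend of that library (log2 change per 10 percentage points of GC); points are the 36 libraries, coloured by condition. Vgf and Chga rise along the axis (r of 0.75 and 0.87), Chgb and Pcsk2 do not (r of 0.08 and 0.03).

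Per length, the members covered a wide range of levels, and the order was led by Cpe. Cpe (ENSMUSG00000037852; GRCm38 chromosome 8, 64592542 to 64693054) averaged 1080 ± 57.2 RPKM in MEC, 1050 ± 64 in LEC, 1080 ± 86.8 in CA3 and 963 ± 81.6 in CA1 (SD, n = 9 libraries each). Chgb stood next over all 36 libraries at 226 ± 131 RPKM, followed by Scg3 at 105 ± 15.9, Scg5 at 90.5 ± 7.71 and Scg2 at 76.6 ± 23.4 RPKM. Pcsk2 averaged 37.6 ± 8.06, Chga 24 ± 5.68, Vgf 16.3 ± 6.3 and Pcsk1 6.51 ± 4.34 RPKM. The ranges of neighbours in this order overlapped throughout, apart from Cpe, whose lowest library (834 RPKM) was above the highest of Chgb (510 RPKM). The carboxypeptidase was thus the most abundant of the 9 transcripts in every library, and the convertase Pcsk1 the least abundant over the series.

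**Figure D2:**
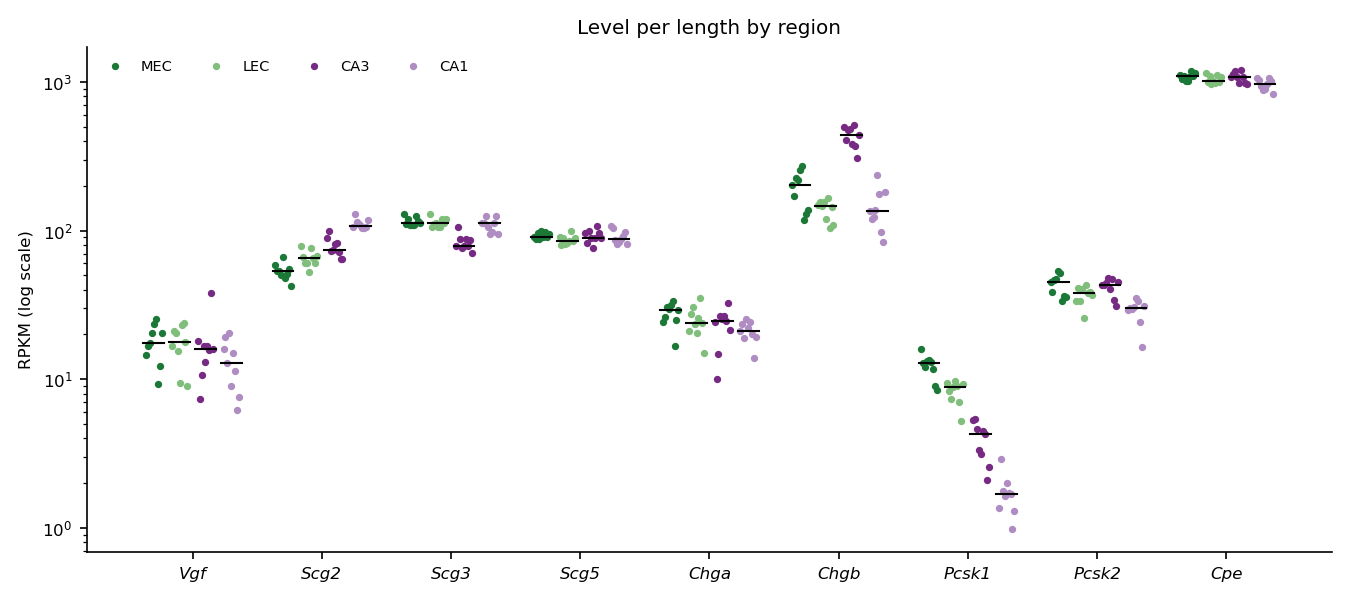
Level per length (RPKM, log axis) of the 9 members in MEC, LEC, CA3 and CA1; each point is a library (9 per region) and each line the median of the region. Pcsk1 steps down from MEC through LEC and CA3 to CA1, Scg2 steps the other way, and Chgb stands highest in CA3.

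The members differed most between regions in Pcsk1, Scg2 and Chgb. Region accounted for 88.4% of the sum of squares of log2 CPM in Pcsk1, 81.1% in Scg2 and 77.8% in Chgb, but for 11.5% in Vgf, 11.7% in Chga and 13.3% in Scg5. In Vgf, Chga and Scg5 most of the spread lay between replicates of 1 group (52.3%, 50.8% and 61.3%). The SD between replicates had a median of 0.18 on the log2 scale over 8197 genes averaging 4 log2 CPM or more. It was higher in Vgf (0.5), Chga (0.33), Pcsk1 (0.33), Chgb (0.28) and Pcsk2 (0.23). In Scg2 it was 0.18, in Scg3 and Scg5 0.13 and in Cpe 0.12. The changes below are to be read against the SD of the member itself.

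Of the granins, Scg2 and Chgb differed most between regions, with the highest level of Scg2 in CA1 and that of Chgb in CA3. Scg2, the precursor of secretoneurin (ENSMUSG00000050711; chromosome 1, 79434669 to 79440120), was at 106 to 166 CPM in MEC (median 134), 132 to 199 in LEC (median 165), 161 to 248 in CA3 (median 185) and 260 to 326 in CA1 (median 270). No CA1 library overlapped with a library of another region, while neighbours among MEC, LEC and CA3 overlapped. Scg2 was lower in MEC than in LEC by -0.33 ± 0.08 (log2 fold change ± SE; adjusted p = 0.00477), in MEC than in CA3 by -0.63 ± 0.08 (adjusted p = 1.78e-07) and in MEC than in CA1 by -1.09 ± 0.08 (adjusted p = 2.08e-12). The difference between CA3 and CA1 was -0.46 ± 0.08 (adjusted p = 6.94e-05). Without the fear 3 libraries MEC against LEC was -0.24 (adjusted p = 0.0633).

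Chgb, which encodes chromogranin B, a core component of dense-core vesicles (ENSMUSG00000027350; chromosome 2, 132781278 to 132795079), was at 320 to 744 CPM in MEC (median 552), 283 to 452 in LEC (median 398), 840 to 1400 in CA3 (median 1200) and 230 to 647 in CA1 (median 369). Every CA3 library was above every library of the other 3 regions. The difference was 1.67 ± 0.13 in CA3 against CA1 (adjusted p = 1.5e-11), -1.31 ± 0.13 in MEC against CA3 (adjusted p = 3.36e-10) and -1.70 ± 0.13 in LEC against CA3 (adjusted p = 1.11e-12). MEC stood above LEC by 0.40 ± 0.12 (adjusted p = 0.0241), while LEC and CA1 differed by -0.03 ± 0.12 (adjusted p = 0.868). With the offsets for GC content and length MEC against LEC was 0.33 (adjusted p = 0.0848), and without fear 2, context 1, context 3 or home cage 1, left out in all 4 regions at once, it was 0.34 to 0.38 (adjusted p = 0.0552 to 0.109). MEC against CA1 passed at 0.37 ± 0.12 (adjusted p = 0.0168), but not with the offsets (0.28, adjusted p = 0.0809) or without context 3 (0.33, adjusted p = 0.075).

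Scg3 encodes a granin that binds Chga and cholesterol-rich membrane and helps to sort cargo into vesicles (ENSMUSG00000032181; chromosome 9, 75643189 to 75684056). It was at 298 to 353 CPM in MEC, 288 to 356 in LEC, 192 to 289 in CA3 and 258 to 342 in CA1, so that CA3 was the lowest of the 4. MEC exceeded CA3 by 0.38 ± 0.07 (adjusted p = 2.98e-05), LEC exceeded CA3 by 0.38 ± 0.07 (adjusted p = 2.94e-05) and CA3 was below CA1 by -0.31 ± 0.07 (adjusted p = 0.000618). Scg5, which encodes the chaperone of the Pcsk2 convertase (ENSMUSG00000023236; chromosome 2, 113776362 to 113829121), passed in none of the 6 region pairs, with means that lay close together, with means of 145 CPM in MEC, 136 in LEC, 143 in CA3 and 143 in CA1. With the GC and length offsets it was lower in LEC than in CA3 (-0.20, adjusted p = 0.0186) and in LEC than in CA1 (-0.20, adjusted p = 0.0171).

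Vgf, a granin-like precursor first found as a gene induced by nerve growth factor (ENSMUSG00000037428; chromosome 5, 137026392 to 137033351), and Chga, which encodes chromogranin A (ENSMUSG00000021194; chromosome 12, 102554969 to 102565028), were the granins with the most variable replicates. Vgf averaged 53.0 ± 15.6 CPM in MEC, 51.9 ± 16.1 in LEC, 50.4 ± 25.7 in CA3 and 38.8 ± 14.8 in CA1 (SD, n = 9 each), and no region pair passed. Chga averaged 75.4 ± 13.7 CPM in MEC, 68.0 ± 16.1 in LEC, 63.0 ± 18.5 in CA3 and 57.9 ± 9.57 in CA1. Only MEC against CA1 passed in Chga, at 0.36 ± 0.14 (adjusted p = 0.0423), and it was lost with the replicate block (adjusted p = 0.0603), with no filter on low counts (adjusted p = 0.0698) and without fear 1, fear 2, fear 3, context 3, home cage 2 or home cage 3 (0.30 to 0.39, adjusted p = 0.0658 to 0.151). With the GC and length offsets Vgf differed from CA1 by 0.56 in MEC (adjusted p = 0.00027), 0.75 in LEC (adjusted p = 5.07e-06) and 0.59 in CA3 (adjusted p = 0.000296), and Chga differed from CA1 by 0.37 in LEC (adjusted p = 0.000243) and 0.24 in CA3 (adjusted p = 0.0192).

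Of the enzymes, Pcsk1 had the widest range of all members. It encodes the convertase that makes the first cuts in many prohormones (ENSMUSG00000021587; chromosome 13, 75089826 to 75134861). It was at 47.7 to 89.2 CPM in MEC (median 72.1), 29.1 to 54.3 in LEC (median 49.8), 11.7 to 30.2 in CA3 (median 24) and 5.46 to 16.2 in CA1 (median 9.44). Neighbouring regions overlapped in this order, but all 6 pairs passed, from 2.82 ± 0.15 in MEC against CA1 (adjusted p = 1.64e-15) to 0.53 ± 0.14 in MEC against LEC (adjusted p = 0.00781). No entorhinal library overlapped with a CA1 library.

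Pcsk2 encodes the convertase that acts late in maturation (ENSMUSG00000027419; chromosome 2, 143546156 to 143816285). Its exons overlap those of the antisense genes Pcsk2os1 and Pcsk2os2 by 260 bases, and since the strand setting of the counting is not given in the sources used here, its level is uncertain to that extent; those genes held 5879 counts in all, against 331538 for Pcsk2. Pcsk2 averaged 342 ± 56.9 CPM in MEC, 290 ± 41 in LEC, 330 ± 45.5 in CA3 and 228 ± 44 in CA1. It exceeded CA1 by 0.55 ± 0.10 in MEC (adjusted p = 4.83e-05), 0.36 ± 0.10 in LEC (adjusted p = 0.00437) and 0.61 ± 0.10 in CA3 (adjusted p = 2.62e-05). Cpe passed in CA3 against CA1 at 0.23 ± 0.07 (adjusted p = 0.00918), and this was lost with the GC and length offsets (0.16, adjusted p = 0.0633) and without fear 1 or context 3 (0.21 and 0.19, adjusted p = 0.0546 and 0.0734). The offsets added calls in LEC against CA3 for Pcsk2 (-0.27, adjusted p = 0.014) and Cpe (-0.18, adjusted p = 0.0337).

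In counts, 3 of 9 members passed in MEC against LEC, where 17.4% of all 17875 genes tested did, and 4 of 9 in MEC against CA3, where 38.4% did. In MEC against CA1, 5 of 9 members and 43.6% of genes passed. In LEC against CA3 it was 4 of 9 members and 39.8% of genes, and in LEC against CA1 3 of 9 and 46.6%. In CA3 against CA1 it was 6 of 9 members and 31.0% of genes. With 9 members these counts were not tested against the share of all genes. Oligodendrocyte markers were also called in every region pair. All 9 were higher in MEC against LEC (median 0.90), and all 9 were lower in MEC against CA3 (median -1.72), MEC against CA1 (-1.18), LEC against CA3 (-2.59) and LEC against CA1 (-2.25), while 5 of 9 were higher in CA3 against CA1 (0.43). Dentate granule markers were lower in CA3 than in CA1, among them Lct (-2.46), Plk5 (-2) and C1ql2 (-1.51), apart from Maml2, which was not called. They were all lower in MEC than in CA1, among them Dsp (-7.03) and Lct (-7.02). The part of either set of markers in the differences between regions was not tested.

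**Figure D3:**
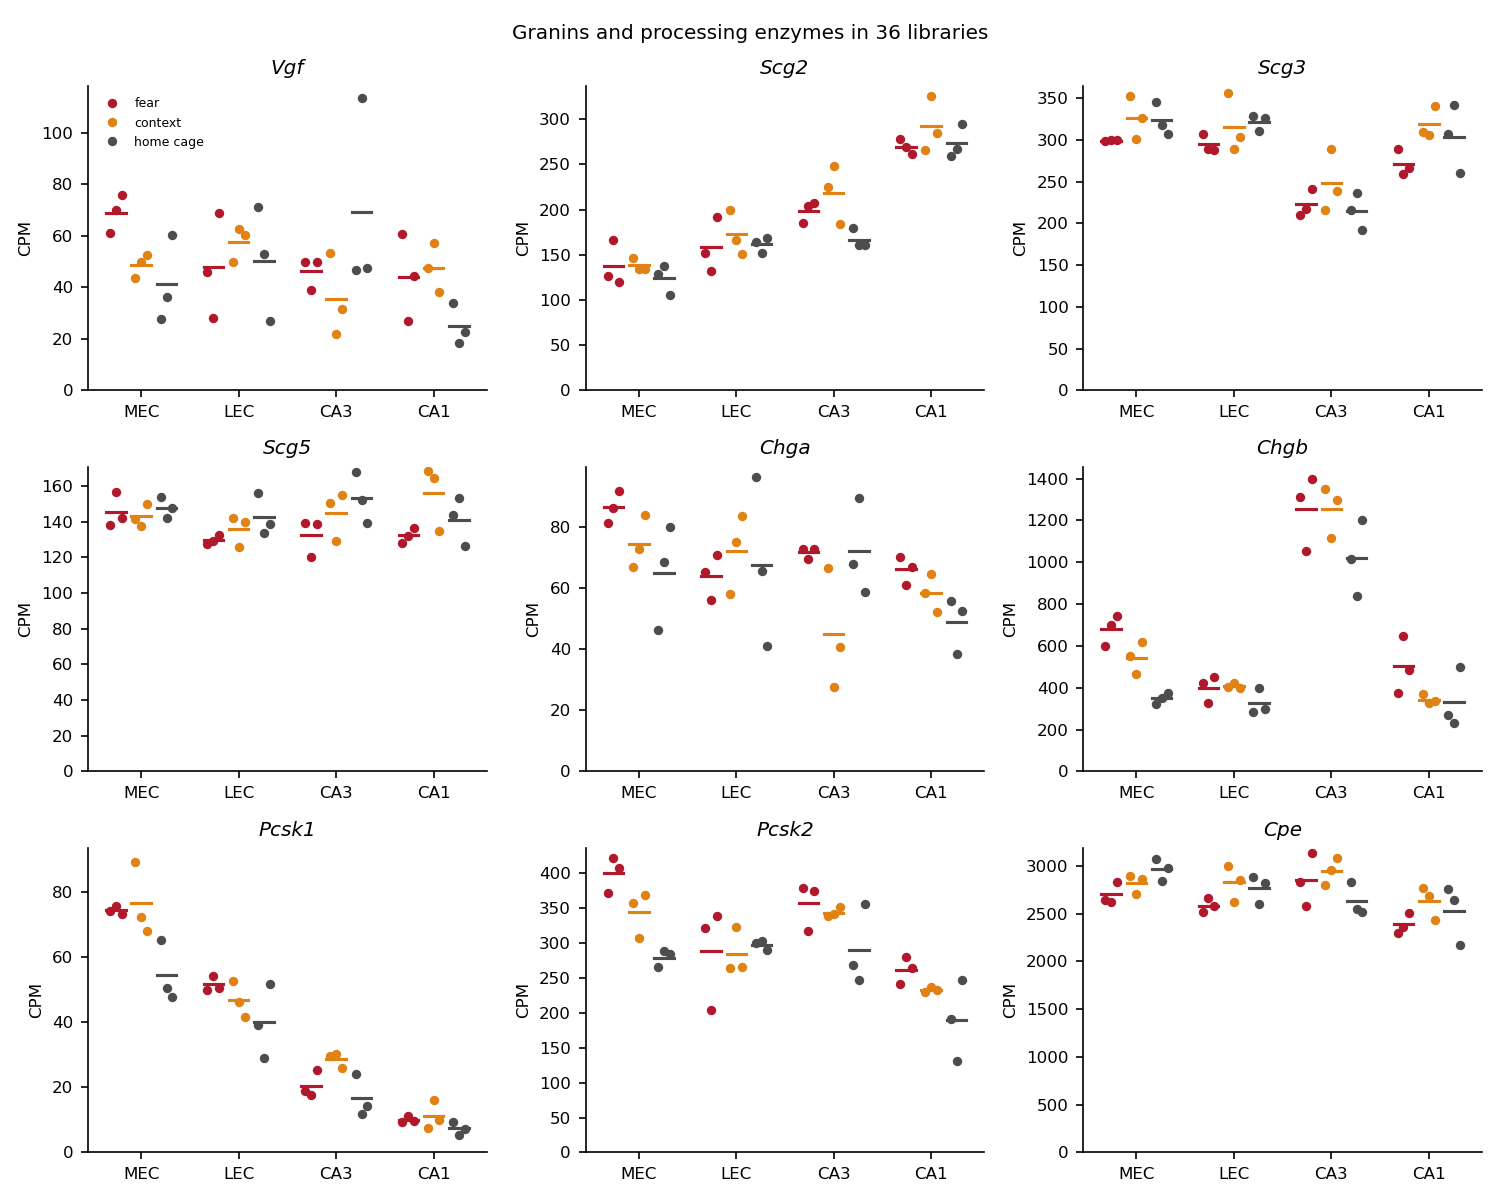
CPM of each member in every library, by region and, within a region, fear, context and home cage from left to right; points are libraries (3 per group) and lines group means. In MEC the 3 fear libraries of Chgb (598 to 744 CPM) stand above the 3 home cage libraries (320 to 374 CPM).

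In MEC, 4 members were higher in fear than in home cage, a comparison that does not separate the shock from other parts of the session. They were Chgb, Pcsk2, Pcsk1 and Vgf; 0 members were lower, and 9.56% of the 16314 genes tested were called in either direction. The median log2 fold change of the 9 members was 0.45, against -0.015 over all genes tested.

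Chgb showed the greatest difference. It was at 598, 702 and 744 CPM in fear libraries of MEC, 552, 465 and 617 in context libraries and 320, 353 and 374 in home cage libraries. All fear and all context libraries were above all home cage libraries, and fear and context overlapped. The difference between fear and home cage was 1.00 ± 0.12 on the log2 scale (adjusted p = 0.000349), and the call held in 9 of 9 fits that each left out 1 MEC library, at 0.95 to 1.10.

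Both convertases were higher. Pcsk2 was at 372, 422 and 408 CPM in fear libraries of MEC, 358, 307 and 369 in context libraries and 265, 288 and 284 in home cage libraries. The 3 groups of Pcsk2 stood in the same order as those of Chgb, with no overlap between fear and home cage. Fear exceeded home cage by 0.56 ± 0.09 (adjusted p = 0.00398; called in 9 of 9 leave-one-out fits).

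Pcsk1 was at 74.2, 75.8 and 73.3 CPM in fear libraries of MEC, 89.2, 72.1 and 67.9 in context libraries and 65.1, 50.4 and 47.7 in home cage libraries. The fear libraries lay within 3 CPM of each other and above all home cage libraries, and the context libraries reached higher. The difference between fear and home cage was 0.49 ± 0.14 (adjusted p = 0.0374). This call was lost without context 2, fear 1, fear 2, fear 3 or home cage 2 of MEC, at 0.43 to 0.52 (adjusted p = 0.0529 to 0.139).

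Vgf was at 61.0, 70.2 and 75.7 CPM in fear libraries of MEC, 43.5, 49.9 and 52.4 in context libraries and 27.7, 36.3 and 60.3 in home cage libraries. Fear stood above both other groups, but home cage 3 came within 1 CPM of the lowest fear library. The difference was 0.77 ± 0.21 (adjusted p = 0.0392). The call was lost without any 1 of context 2, context 3, fear 1, fear 2, fear 3, home cage 1 or home cage 2, at 0.56 to 0.86 (adjusted p = 0.0515 to 0.126), and with no filter on low counts (adjusted p = 0.171).

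The other 5 members did not pass in fear against home cage of MEC. Chga was at 81.5, 86.4 and 91.9 CPM in fear libraries and 46.3, 68.7 and 80.0 in home cage libraries, a difference of 0.45 ± 0.15 with no overlap (adjusted p = 0.074; 0.46 and 0.0351 by DESeq2). Scg2 (0.19 ± 0.13), Scg3 (-0.07 ± 0.09), Scg5 (0.02 ± 0.09) and Cpe (-0.10 ± 0.09) were closer to 0, with adjusted p of 0.362 to 0.927. In Scg3 all fear libraries (298 to 300 CPM) lay below all home cage libraries (307 to 345 CPM). The same held in Cpe (2630 to 2830 and 2840 to 3070 CPM), so a lack of overlap was not limited to members that were higher. The share of all genes without overlap is not given for this or any other comparison, so a lack of overlap is only a description. With GC and length offsets 7 members were called in this comparison, among 2016 genes. They were the 4 above with Chga (0.27), Scg2 (0.36) and Scg5 (0.22). In the fit of all 36 libraries Chgb alone passed, and Pcsk2, Pcsk1 and Vgf had an adjusted p of 0.096, 0.281 and 0.291 at differences of 0.58, 0.52 and 0.79.

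In MEC, context exposure alone was associated with a higher level of Chgb. It was the 1 member called in context against home cage, where 0.57% of genes were, at 0.68 ± 0.11 (adjusted p = 0.02), and was lost without context 1, context 3, home cage 1 or home cage 2 (0.59 to 0.68, adjusted p = 0.0611 to 0.0936) and in the fit of all 36 libraries (0.71, adjusted p = 0.503). Pcsk1 (0.53 ± 0.14, adjusted p = 0.0805) and Pcsk2 (0.34 ± 0.09, adjusted p = 0.101) did not pass, and neither overlapped between the groups. Same-numbered context and home cage libraries of MEC deviated together, and with the replicate block 3 members passed: Chgb, Pcsk1 (0.53, adjusted p = 0.00868) and Pcsk2 (0.34, adjusted p = 0.037). This pairing was read from the same libraries. Mice of the context and home cage groups were different mice, so it does not pair tissue of 1 mouse. What same-numbered libraries shared is not stated. The GC slopes of these libraries stood in the same order, at -0.26, -0.09 and 0.08 in context and -0.3, -0.14 and 0.18 in home cage. With the GC and length offsets 3 passed, Chgb, Pcsk1 (0.56, adjusted p = 0.00574) and Vgf (0.39, adjusted p = 0.0249). Fear and context of MEC had 0 members called by edgeR, as were 0% of genes (2395 with an unadjusted p under 0.05), and 0 by DESeq2, among 51 genes. The difference between fear and context was 0.32 ± 0.11 in Chgb, 0.51 ± 0.21 in Vgf, 0.22 ± 0.09 in Pcsk2 and -0.04 ± 0.13 in Pcsk1 (adjusted p = 0.312, 0.329, 0.33 and 0.909).

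Markers of oligodendrocytes moved with these comparisons. Their mean level was 7.30 ± 0.26 log2 CPM in fear libraries of MEC, 7.02 ± 0.14 in context libraries and 6.57 ± 0.29 in home cage libraries (SD, n = 3 each), with summed levels of 2520 to 3510, 2450 to 2850 and 1700 to 2450 CPM. In fear against home cage 6 of 9 oligodendrocyte markers were higher (median 0.72), as were 3 of 6 endothelial markers (median 0.59), and none of the 9 was at 0 in any group. With the oligodendrocyte level as a covariate, 0 of the 4 members were called in fear against home cage; Chgb was at 0.81 (adjusted p = 0.116), Vgf at 1.18 (adjusted p = 0.194), Pcsk2 at 0.43 (adjusted p = 0.238) and Pcsk1 at 0.22 (adjusted p = 0.64). Chgb in context against home cage was at 0.56 with it (adjusted p = 0.126). Of 8 interneuron markers, 2 were higher in fear than in home cage, Gad1 (0.50, adjusted p = 0.00627) and Pvalb (0.98, adjusted p = 0.0261), with a median of 0.14 and summed levels of 939 to 1010 CPM in fear libraries and 816 to 903 CPM in home cage libraries. Of 7 astrocyte markers 1 was lower, Gfap (-0.42, adjusted p = 0.0374). The part of endothelial cells, interneurons and astrocytes was not tested. The GC slope also differed, at 0.10 to 0.22 in fear libraries, -0.26 to 0.08 in context libraries and -0.30 to 0.18 in home cage libraries of MEC. Genes induced by activity were higher as well: 8 of the 14 on that list passed in fear against home cage (median 0.87) and 4 of 14 in context against home cage. Egr1, an immediate early transcription factor, was at 245, 315 and 234 CPM in fear libraries, 229, 213 and 236 in context libraries and 110, 97.0 and 105 in home cage libraries.

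**Figure D4:**
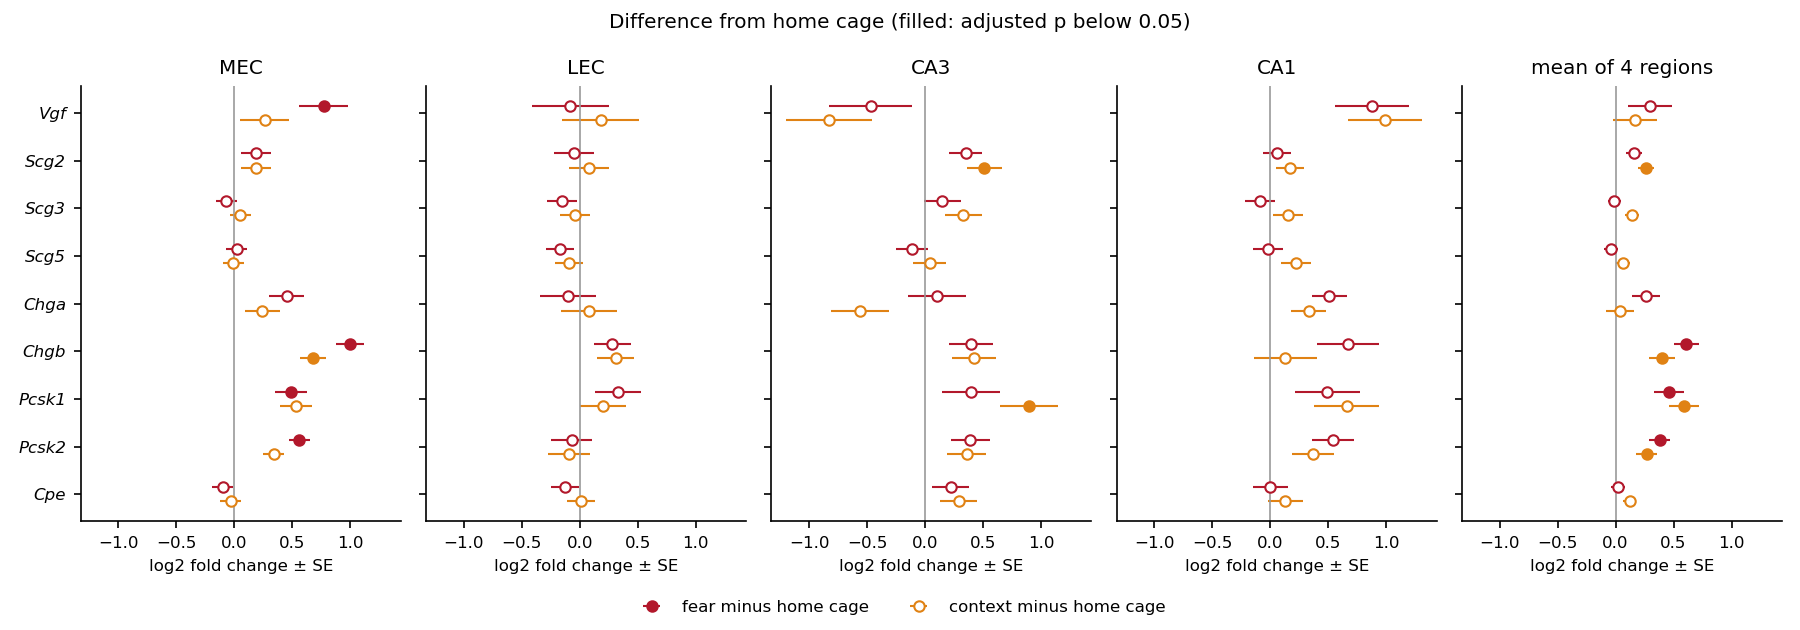
Log2 fold change (± SE) of each member in fear and in context against home cage, for each region and for the mean of the 4 regions; filled points passed at an adjusted p below 0.05. In MEC the filled points are Vgf, Chgb, Pcsk1 and Pcsk2 in fear and Chgb in context; LEC and CA1 have none.

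In CA3, Scg2 and Pcsk1 were the 2 members called in context against home cage, both higher, where 13.9% of the 16145 genes were called. The smallest adjusted p over all genes of this comparison was 0.045, so every call lay just under the threshold of 0.05. The count of members was not tested against the share of all genes. Scg2 was at 185, 204 and 207 CPM in fear libraries, 224, 248 and 184 in context libraries and 179, 161 and 161 in home cage libraries. Fear and context overlapped, and both stood above all home cage libraries. The difference between context and home cage was 0.51 ± 0.15 (adjusted p = 0.0459).

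Pcsk1 was at 18.7, 17.6 and 25.3 CPM in fear libraries of CA3, 29.5, 30.2 and 26.0 in context libraries and 23.9, 11.7 and 14.4 in home cage libraries. All context libraries stood above all others. The difference between context and home cage was 0.90 ± 0.25 (adjusted p = 0.046). Either call was lost without any 1 CA3 library other than context 1 (adjusted p = 0.0508 to 0.173), and leaving out context 2 and home cage 2 together gave 0.36 for Scg2 and 0.64 for Pcsk1 (adjusted p = 0.316 and 0.301). With the GC and length offsets the differences were 0.42 and 0.61 (adjusted p = 0.0716 and 0.125), and with the dentate granule level as a covariate 0.54 and 0.70 (adjusted p = 0.0901 and 0.108).

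Vgf and Chga pointed the other way in CA3 without passing. Vgf was at 53.3, 21.8 and 31.6 CPM in context libraries and 46.9, 113 and 47.4 in home cage libraries, so that home cage 2 was the highest library of the series. The difference was -0.83 ± 0.37 (adjusted p = 0.129). Chga was at 66.7, 27.7 and 40.6 CPM in context libraries and 67.9, 89.6 and 58.9 in home cage libraries (-0.56 ± 0.25, adjusted p = 0.133). The lowest libraries of both genes, context 2 and context 3, and the highest, home cage 2, were those with the steepest GC slopes, negative in the context libraries and positive in home cage 2. Blood markers were lower in context than in home cage of CA3 (4 of 5, median -1.52), with summed levels of 9.04 to 19.7 CPM in context libraries and 32.4 to 58.4 CPM in home cage libraries, and the part of blood in these results was not tested.

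Fear against home cage of CA3 had 0 of 9 members called and 0.00619% of genes, 1 gene of 16145 by edgeR (3047 at an unadjusted p under 0.05), and 595 genes and 0 members by DESeq2. Scg2 (185, 204 and 207 CPM in fear, 179, 161 and 161 in home cage) had no overlap, at 0.35 ± 0.14 (adjusted p = 0.233). Chgb was at 1314, 1055 and 1397 CPM in fear libraries and 1015, 840 and 1202 in home cage libraries, which overlapped (0.40 ± 0.19, adjusted p = 0.278). Fear against context of CA3 had 0 members and 0% of genes called by edgeR (3785 at an unadjusted p under 0.05), and 0 members and 702 genes by DESeq2.

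In CA1, 0 members were called in fear against home cage, as were 0% of the 16163 genes by edgeR (3553 at an unadjusted p under 0.05). Vgf was at 60.7, 26.8 and 44.3 CPM in fear libraries, 47.3, 57.1 and 38.0 in context libraries and 33.9, 18.5 and 22.5 in home cage libraries. All context libraries were above all home cage libraries, and fear overlapped with both. The difference from home cage was 0.88 ± 0.32 in fear (adjusted p = 0.156) and 0.99 ± 0.32 in context (adjusted p = 0.137). Chga was at 70.2, 61.2 and 67.1 CPM in fear libraries and 55.8, 38.5 and 52.6 in home cage libraries, which did not overlap (0.51 ± 0.15, adjusted p = 0.0943).

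Context against home cage of CA1 had 0 members and 0% of genes called (3449 at an unadjusted p under 0.05), and fear against context had 0 members and 0% of genes (918 at an unadjusted p under 0.05). By DESeq2 the calls were Vgf (0.88, adjusted p = 0.0261), Chga (0.50, adjusted p = 0.0386) and Pcsk2 (0.54, adjusted p = 0.0485) among 1389 genes in fear against home cage, Vgf (1.00, adjusted p = 0.0171) among 979 genes in context against home cage, and 0 members among 17 genes in fear against context. Same-numbered fear and home cage libraries of CA1 deviated together, and with the replicate block 715 genes and 0 members passed. Leaving out home cage 1 or home cage 3 gave 1 and 2 called members in fear against home cage. Dentate granule markers in CA1 summed to 398 to 530 CPM in fear, 139 to 441 in context and 287 to 596 in home cage. With their level as a covariate 0 members were called in CA1, as in the main fit. CA3 pyramidal markers in CA1 summed to 134 to 369 CPM in fear, 90.4 to 112 in context and 105 to 277 in home cage. The part of CA3 cells in the levels of the members in CA1 was not tested.

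In LEC no comparison called a member. Fear against home cage called 0% of the 16402 genes by edgeR (1242 at an unadjusted p under 0.05; 28 genes and 0 members by DESeq2), context against home cage 0% (403; 1 gene and 0 members by DESeq2) and fear against context 0% (207; 0 genes by DESeq2). Chgb was at 423, 327 and 452 CPM in fear libraries of LEC, 404, 424 and 398 in context libraries and 283, 396 and 298 in home cage libraries. Context and home cage did not overlap in Chgb, and the differences from home cage were 0.28 ± 0.16 in fear and 0.31 ± 0.16 in context (adjusted p = 0.737 and 1). Pcsk1 was at 49.8, 54.3 and 50.6 CPM in fear libraries, 52.6, 46.3 and 41.4 in context libraries and 39.1, 29.1 and 51.6 in home cage libraries, so that home cage 3 overlapped with both. All fear libraries lay below all home cage libraries in Scg3 (288 to 307 and 310 to 328 CPM) and Scg5 (128 to 132 and 134 to 156 CPM). The median log2 fold change of the 9 members was -0.08 in fear and 0.08 in context against home cage.

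Averaged over the 4 regions, Chgb, Pcsk1 and Pcsk2 were higher in both exposed groups than in home cage. The rise of Pcsk2 was not seen in every region. In LEC it was at -0.07 ± 0.18 in fear and -0.09 ± 0.18 in context, neither of them called. In fear against home cage 3 of 9 members passed, all higher, where 24.1% of the 17875 genes did in either direction: Chgb at 0.61 ± 0.11 (adjusted p = 0.000137), Pcsk1 at 0.46 ± 0.13 (adjusted p = 0.00836) and Pcsk2 at 0.38 ± 0.09 (adjusted p = 0.00219). In context against home cage 4 of 9 passed, all higher, where 22.1% of genes did: Pcsk1 at 0.59 ± 0.13 (adjusted p = 0.00137), Chgb at 0.40 ± 0.11 (adjusted p = 0.00759), Scg2 at 0.26 ± 0.07 (adjusted p = 0.00925) and Pcsk2 at 0.27 ± 0.09 (adjusted p = 0.0296). The 2 comparisons share the home cage libraries. Fear against context called 0 members and 3.37% of genes (602), with 0 members by DESeq2 too.

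Some of these calls rested on few libraries. Pcsk1 in fear was lost when fear 3 of all regions was left out (0.38, adjusted p = 0.0844) or home cage 2 (0.30, adjusted p = 0.105). In context, Pcsk2 was lost without 1 replicate in 6 of 9 cases (down to 0.19 without home cage 2, adjusted p = 0.154), Scg2 without context 1, context 2 or home cage 2, and Chgb without home cage 1 (0.33, adjusted p = 0.0605). Chgb and Pcsk2 in fear, and Pcsk1 in context, were called in 9 of 9 such fits. With the GC and length offsets Vgf was also called, at 0.36 in fear (adjusted p = 0.0132) and 0.56 in context (adjusted p = 0.000534), as was Chga at 0.25 and 0.27 (adjusted p = 0.00961 and 0.00595) and Scg2 in fear at 0.21 (adjusted p = 0.0311), while Pcsk2 in context was not (0.17, adjusted p = 0.13).

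Markers of other cells were also called in the averaged comparisons. Of 8 interneuron markers, 2 were higher in fear, Gad1 (0.53) and Gad2 (0.37), and 4 in context, Gad2 (0.48), Gad1 (0.43), Kcnc2 (0.35) and Lhx6 (0.27), with medians of 0.14 and 0.20. Choroid plexus markers were lower in fear for 2 of 6 (Ttr -2.78 and Folr1 -2.58, median -0.87) and higher in context for 1 (Kl 0.39, median -0.71). Of 7 microglial markers 1 was higher and 2 lower in fear, and 2 were lower in context, C1qa (-0.61) and C1qb (-0.63). Of 5 blood markers 1 was lower in fear and 3 in context, and of 7 astrocyte markers 2 were lower in fear and 1 in context. The part of these cells in the levels of the members was not tested.

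No member's response was shown to differ between regions. The difference of fear minus home cage between MEC and LEC was 0.72 ± 0.31 in Chgb, 0.62 ± 0.25 in Pcsk2 and 0.85 ± 0.54 in Vgf, and 0 of 9 members passed (adjusted p of at least 0.679), where 0.0168% of genes (3) did. Between entorhinal and hippocampal regions 0 members and 0% of genes passed for fear (2072 at an unadjusted p under 0.05) and 0 members and 0% for context (2860). Between CA3 and CA1, 0 members and 0% of genes passed for fear (712); the widest member difference was that of Vgf, at -1.31 ± 0.54 (adjusted p = 0.996). DESeq2 called 0 members in the 4 tests, with 16, 54, 54 and 1 genes in the order given. A call in MEC and none in LEC or CA1 therefore does not show that MEC responded differently.

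The other genes of the pathway were counted from 3 lists, to be read against the 9.56% of all genes called in fear against home cage of MEC. Of 14 other processing enzymes and inhibitors, 2 were higher and 1 lower in fear against home cage of MEC, among them Pam, which amidates peptides (0.32, adjusted p = 0.0322), and the membrane carboxypeptidase Cpm (0.79, adjusted p = 0.00716); Pcsk5, a convertase of the constitutive pathway, was lower (-0.91, adjusted p = 0.0255). The median of that list was -0.02, against 0.45 for the 9 members. Of 27 genes of dense-core vesicle biogenesis, membrane and release, 3 were higher, among them Cadps, a priming factor of vesicle release (0.32, adjusted p = 0.034), and 1 was lower, with a median of 0.00. Of 17 peptide precursors and neurotrophins tested, 2 were higher, Bdnf (0.97, adjusted p = 0.0016) and Pdyn (1.42, adjusted p = 0.0143), and 3 were lower, among them Tac1 (-1.02, adjusted p = 0.00302) and Nts (-2.33, adjusted p = 0.016). In context against home cage of MEC 0 genes of the 3 lists were called.

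In context against home cage of CA3, where 13.9% of all genes were called, 2 of 13 tested processing genes were higher, the carboxypeptidases Cpd (0.70, adjusted p = 0.045) and Cpm (0.68, adjusted p = 0.045), and Pcsk7 was lower (-0.58, adjusted p = 0.0459). Of the 27 vesicle genes 0 were higher and 2 lower, Pick1 (-0.77, adjusted p = 0.045) and Syt7, a calcium sensor of vesicle fusion (-0.49, adjusted p = 0.0473). The 2 peptide precursors called of 15 were lower, Cck (-1.39, adjusted p = 0.0467) and Pnoc (-1.15, adjusted p = 0.0476).

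Averaged over the regions, Pam was higher in fear (0.42, adjusted p = 5.84e-05) and in context (0.39, adjusted p = 0.000321) than in home cage. Of the 27 vesicle genes 6 were higher and 1 lower in fear, where 24.1% of all genes were called, led by Vti1a, a SNARE of the Golgi (0.35, adjusted p = 3.14e-05), Cadps (0.39, adjusted p = 0.000279) and Ptprn2, a membrane protein of the vesicle (0.53, adjusted p = 0.000307). In context, where 22.1% of all genes were called, 7 were higher and 2 lower, led by Cadps (0.40, adjusted p = 0.000393). The medians of the list were 0.06 in fear and 0.10 in context, against -0.003 and -0.027 over all genes.

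Pcsk1n, which encodes proSAAS, an inhibitor of the Pcsk1 convertase, stood apart in 1 library. It was at 330 CPM in home cage 2 of CA3 and at 1.06 to 17.7 CPM in the other 35 libraries (median 4.96). That library had 6 of 14128 genes at least 10-fold above every other library, and it is the one with the highest Vgf; fear 2 of CA3 had 8 such genes, and the other 34 libraries had 0. Over all libraries Pcsk1n was called lower than in home cage, by -1.31 ± 0.46 in fear (adjusted p = 0.0373) and -1.82 ± 0.47 in context (adjusted p = 0.00647). Without this library, an alternative chosen after its level was seen, the differences were -0.32 ± 0.29 (adjusted p = 0.48) and -0.84 ± 0.30 (adjusted p = 0.0527). The called members kept their directions in that fit, with 3 called in fear and 3 in context; Pcsk2 in context was at 0.24 (adjusted p = 0.0672).

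Over the 36 libraries, centred on the mean of each region, the most similar members were Vgf and Chga and, next to them, Chgb and Pcsk2. Vgf and Chga had a Pearson r of 0.86 (Spearman rho 0.83) and Chgb and Pcsk2 an r of 0.85 (rho 0.88); without the 2 libraries farthest from the median of the first gene, both r were 0.83. Scg3 with Cpe (0.72), Scg5 with Cpe (0.68) and Scg2 with Pcsk1 (0.66) followed. These are descriptions, with no p, since tissue of 1 mouse may stand in several regions and all libraries share the effects of condition and GC slope. Of the 36 pairs of members, 27 had a positive r, with a median of 0.30 and a range of -0.39 to 0.86. After the GC and length offsets all 36 were positive, with a median of 0.60 and a range of 0.11 to 0.77, and Vgf with Chga was at 0.76 and Chgb with Pcsk2 at 0.77. Vgf with Scg5, Scg3 with Cpe and Scg5 with Cpe were then also at 0.77, so that the 2 pairs named first no longer stood above the others. Over all pairs of the 3517 genes averaging 6 log2 CPM or more the median was 0.17 before the offsets and 0.19 after them. Of those pairs 60.3% were positive before the offsets and 65.5% after them. Vgf and Pcsk1, at means of 48.5 and 36.5 CPM, lay below that level. The offsets were applied to this measure after the GC slopes were seen.

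**Figure D5:**
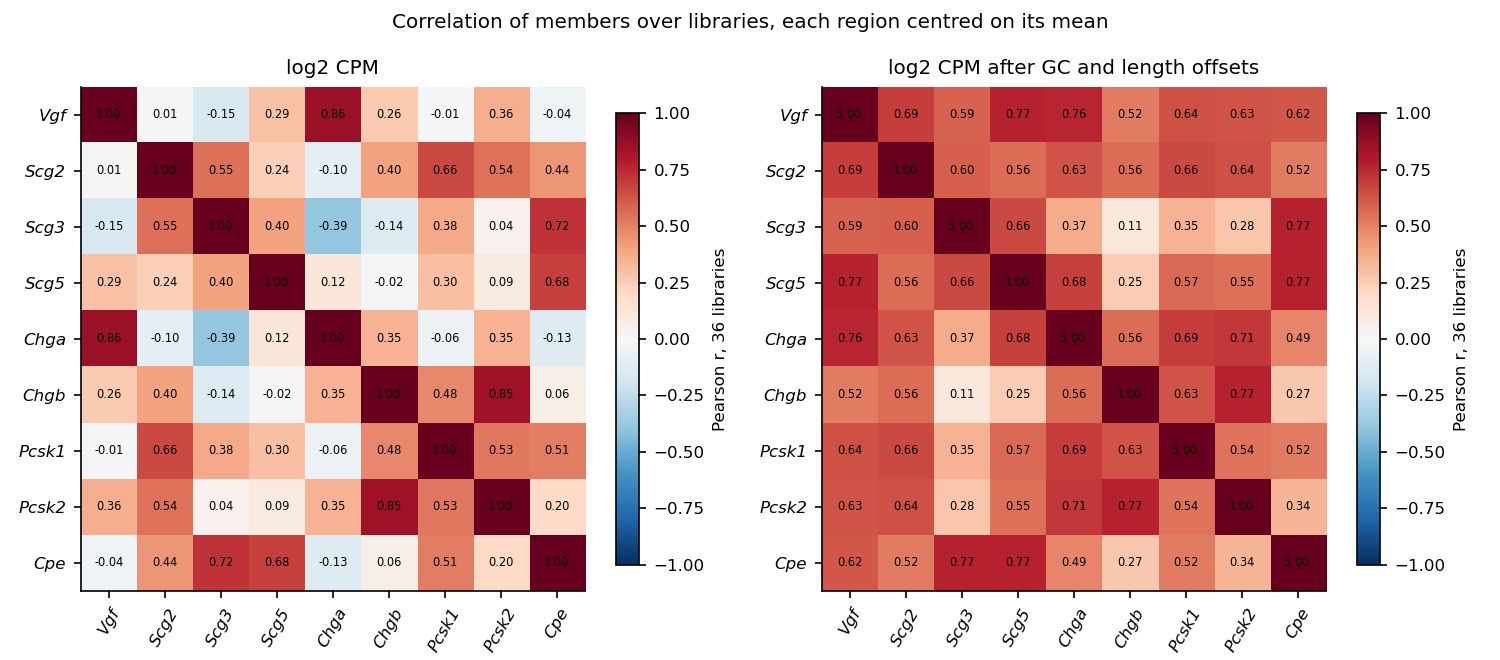
Pearson r between members over the 36 libraries, each region centred on its mean, for log2 CPM (left) and for log2 CPM after GC and length offsets (right). On the left Vgf with Chga (0.86) and Chgb with Pcsk2 (0.85) stand out; on the right all 36 pairs are positive.

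The genes most like each member in the same measure, of 12743 ranked, were Slc32a1, Cacnb1 and Mark4 for Vgf (r of 0.90 to 0.92) and Klc1, Klhdc3 and Vps18 for Chga (0.95 to 0.96). Epha4 was first for both Chgb (0.88) and Pcsk2 (0.94), followed by Kcnh1 and Atp6v0e2 for Chgb and by Hapln4 and Rbfox1 for Pcsk2. Rgs4, Hspa4l and Atp7a were nearest to Pcsk1 (0.85 to 0.87), and Tspan13, Ptdss1 and Ppp2r5c to Cpe (0.79 to 0.83). Scg2 (Nol4, Spred1 and Ppp1r15b, 0.75 to 0.77), Scg3 (Rnf2, Gng12 and Rad21, 0.78 to 0.80) and Scg5 (Inpp5f, Fez1 and Txndc12, 0.69 to 0.72) had less similar neighbours. With Egr1 the r was 0.59 in Vgf, 0.54 in Pcsk2, 0.52 in Pcsk1, 0.49 in Chgb, 0.47 in Chga and 0.39 in Scg2, and it was 0.15 in Scg3, 0.15 in Scg5 and 0.17 in Cpe. Other genes induced by activity gave other values. With Arc the r was 0.75 in Vgf and 0.69 in Chga, but 0.21 in Pcsk2, 0.15 in Chgb, 0.06 in Pcsk1 and -0.01 in Scg2. With Fos it was 0.48 in Pcsk1 and Scg2 and 0.27 to 0.33 in Vgf, Chga, Pcsk2 and Chgb. With Npas4 it was 0.28 in Vgf, 0.07 in Pcsk1, -0.17 in Pcsk2 and -0.18 in Chgb. All r of this paragraph came from levels without the GC and length offsets. With the GC slope itself the r was 0.87 in Chga and 0.75 in Vgf, but 0.08 in Chgb, 0.03 in Pcsk2 and -0.44 in Pcsk1. The part of the GC slope in these likenesses was not tested.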

How the data were processed

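The authors deposited raw counts of reads for each gene in each library; per the submitters' processing notes, Trimmomatic 0.33, STAR 2.7.10b, HTSeq 2.0.1 and mm10 were used, after TruSeq Stranded mRNA libraries per the labels' protocols. The annotation release and strand setting were left unstated by the sources at hand. Identifiers were matched to GENCODE M21, and 35533 of 37315 (95.2%) had a symbol. Exon lengths for RPKM came from the same annotation.

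The 9 libraries of each region passed filterByExpr and TMM scaling, and the 3 conditions were contrasted by the quasi-likelihood test of edgeR 4.0.16 in R 4.3.3, with robust estimates and 6 residual degrees of freedom. A second model over the 36 libraries, with 24 residual degrees of freedom, gave region pairs, means over 4 regions and interactions. A gene was called where its p, adjusted by Benjamini and Hochberg over the genes tested, was under 0.05. The SE is the log2 fold change divided by the root of the F statistic. Log2 CPM used a prior count of 2. Pearson correlations used TMM-scaled values.

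Named genes were the 9 members, at most 4 called genes of smallest p per pathway list and comparison, Egr1, and the 3 genes most like each member; Pcsk1n in single libraries was chosen after its values were seen. Members, lists and tests were chosen with earlier results of these data known. On simulated counts, log2 changes of 1 were recovered at 96% in fear against home cage of MEC (16094 genes) and 72% in context against home cage of CA3 (15921 genes). False calls were 5.3% and 7% of those called. The counts were drawn independently, without GC slopes, and only changes of 1 and 2 were simulated. Recovery of smaller changes, and in libraries with GC slopes, was therefore not measured.

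Within a region, replicate numbers were taken to pair libraries where the deviations of same-numbered libraries, over 8197 genes, correlated above 0.1 in every pair: fear and home cage of CA1 (0.32, 0.44 and 0.25) and context and home cage of MEC (0.64, 0.32 and 0.79). Between regions this held for context of MEC and LEC (0.71, 0.25 and 0.69) and for fear of LEC and CA3 (0.27, 0.34 and 0.31), LEC and CA1 (0.18, 0.59 and 0.43) and CA3 and CA1 (0.25, 0.26 and 0.45), but not for all conditions of any region pair; the tests between regions treat libraries as independent. Some other sets were negative in every pair, as home cage of MEC and LEC (-0.6, -0.24 and -0.83). The pairing was read from these same data and is not given by the labels. Replicates of each group differed by more than sampling noise (chi-square per degree of freedom of 9.84 to 127). Alternatives were RLE scaling, no low-count filter, DESeq2 1.42.0, a replicate block, the 36-library fit, a marker covariate, offsets for GC content and length (natural splines, 5 degrees of freedom), and leaving out libraries. The depth of 21871412 to 68974340 counts was read directly from the counts.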

Additional observations from a re-analysis of the deposited data

How the results depend on the processing

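Of 39 calls of a member in a comparison, 0 changed sign under any alternative. All 39 held with RLE scaling and DESeq2, 37 with the replicate block and with no low-count filter, and 33 of 39 with GC and length offsets; the marker covariate kept 0 of 7 within regions and the 36-library fit 3 of 7. Values that did not pass changed sign in 31 cases with the GC and length offsets. Called members in MEC fear against home cage numbered 0 with the marker covariate, 7 with the offsets, 7 with the offsets and replicate block, 1 in the 36-library fit and 2 to 5 leaving out 1 library. In MEC context against home cage they numbered 3 with no low-count filter, 3 with DESeq2, 3 with the replicate block, 0 with the marker covariate, 3 with the offsets, 4 with the offsets and replicate block, 0 in the 36-library fit and 0 to 2 leaving out 1 library. In CA3 context against home cage they numbered 1 with the replicate block, 0 with the marker covariate, 0 with the offsets, 0 without context 2 and home cage 2, and 0 to 5 leaving out 1 library. DESeq2 called 3 in CA1 fear and 1 in CA1 context against home cage, and leaving out 1 library gave 0 to 2 in CA1 fear against home cage and 0 to 1 in CA3 fear against context. The replicate block called 1 in MEC fear against context (Chgb, 0.32, adjusted p = 0.0498), where the numbers did not pair the libraries by the rule used. The offsets called 7 in LEC against CA3, 6 in LEC against CA1 and 6 in the mean of fear against home cage. Over all genes these fits called 8316, 9426 and 4250, in the same order. Leaving out a replicate gave 3 to 6 in MEC against CA1, 3 to 5 in LEC against CA1 and 2 to 4 in the mean of context against home cage. Over all genes, MEC fear against home cage had 1559 calls, against 35 with the marker covariate, 239 in the 36-library fit, 2393 by DESeq2, 3783 with the replicate block and 2497 with the block and offsets; MEC context against home cage had 93, against 427 with no low-count filter, 540 by DESeq2, 667 with the replicate block, 424 with the offsets, 696 with both and 1 in the 36-library fit; CA3 context against home cage had 2243, against 3972 by DESeq2, 1330 with the replicate block, 453 with the offsets, 5065 in the 36-library fit and 0 with the covariate or without context 2 and home cage 2. CA3 fear against home cage had 1, against 595 by DESeq2, 171 with the offsets, 1126 with the block and offsets and 1235 in the 36-library fit. CA1 fear against home cage had 0, against 558 with no filter, 1389 by DESeq2, 715 with the block and 752 in the 36-library fit, and CA1 context against home cage 0, against 197 with no filter, 979 by DESeq2 and 905 in the 36-library fit. MEC fear against context had 0, against 784 with the block, and CA3 fear against context 0, against 702 by DESeq2. The mean of fear against context had 602, against 2038 by DESeq2, 297 with no filter and 271 with the offsets. Where 0 to 3 genes were called in the other comparisons, alternatives gave at most 54. The causes were not tested. The replicate block changed 2 calls and added 6 in all. The least abundant member, Pcsk1, was at 5.46 CPM (125 counts) in its lowest library, home cage 2 of CA1, and the part of depth in the calls was not tested.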
